A study of Mus musculus with 8 samples.

Results

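The genes described are 5 that encode the receptor and ligands of colony stimulating factor signalling in microglia: Csf1r, Csf1, Il34, Csf2ra and Csf2rb. They were chosen by symbol, each through its Ensembl gene identifier (ENSMUSG00000024621, ENSMUSG00000014599, ENSMUSG00000031750, ENSMUSG00000059326 and ENSMUSG00000071713). No measured value entered the rule, but earlier results of these data were known when the genes were chosen. They are 5 of 26062 genes in the count table, and all 5 were among the 17390 genes with enough counts to be tested. RNA was sequenced from microglia of the lateral geniculate nucleus (LGN), the thalamic nucleus in which retinal axons end, of adult wild type male C57BL/6J mice aged 2 to 3 months. The uninjured group has 2 libraries, and the groups taken 1 day and 3 days after crush of both optic nerves have 3 libraries each. Every mouse was wild type, and the labels set the groups apart only by the crush and the time after it. The cells were pulled out on CD11b magnetic beads, which bind any myeloid cell that carries this integrin and not microglia alone. Whether a library is 1 mouse or a pool of mice is not stated in the labels, so p-values here measure only how far these libraries scatter, which may be technical.

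CSF1R is a receptor tyrosine kinase on microglia and other macrophages, and its signal is needed for microglia to survive and to divide. Its ligands are CSF1 and IL-34. In the brain IL-34 is made mainly by neurons, while CSF1 is made by glia, by some injured neurons and by microglia themselves. CSF2RA binds granulocyte-macrophage colony stimulating factor (GM-CSF) and needs the common beta chain, CSF2RB, to signal through the kinase JAK2 and the transcription factor STAT5. Mice carry a second beta chain gene, Csf2rb2, a near copy of Csf2rb whose protein pairs with the IL-3 receptor alpha chain.

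The likeness of the common beta chain genes sets how far their counts can be read apart, so the start of the exon that holds their longest identical stretch is shown for each, with capitals at the bases that differ. The sequences are coding exon from GENCODE M21 on GRCm38, at chr15:78348072-78348221 on the plus strand for Csf2rb and chr15:78285230-78285379 on the minus strand for Csf2rb2, both 5′ to 3′.
Csf2rb: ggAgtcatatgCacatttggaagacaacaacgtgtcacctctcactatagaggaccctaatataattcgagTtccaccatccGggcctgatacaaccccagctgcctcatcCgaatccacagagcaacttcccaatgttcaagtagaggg
Csf2rb2: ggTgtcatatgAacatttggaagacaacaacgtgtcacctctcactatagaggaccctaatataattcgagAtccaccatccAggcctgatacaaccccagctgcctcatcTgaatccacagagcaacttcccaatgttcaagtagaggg
The genes differ at 5 of these 150 bases, an identity of 96.7%. Further into the same exon they share 242 bases without a difference, at chr15:78348577-78348818 in Csf2rb and chr15:78284630-78284871 in Csf2rb2, shown here because no read that lies inside it can be given to either gene.
Shared run: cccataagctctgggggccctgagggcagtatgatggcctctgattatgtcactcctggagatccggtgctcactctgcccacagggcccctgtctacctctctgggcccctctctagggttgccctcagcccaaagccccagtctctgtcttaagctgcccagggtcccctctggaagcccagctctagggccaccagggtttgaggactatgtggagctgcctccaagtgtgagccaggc
Of the 7268 stretches of 50 bases in the annotated transcripts of Csf2rb, 892 (12.3%) also occur in Csf2rb2, and these make up 18.4% of the 4836 stretches of Csf2rb2. These are shares of sequence and not of reads. The sources used here do not give the read length or how shared reads were counted, so how far the values of Csf2rb and Csf2rb2 are uncertain is not known.

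Upstream sequence is shown for Csf1 and Csf2ra, the members with the largest fitted differences at 1 day, and for Csf2rb2, the receptor chain gene that rose at 3 days. The RefSeq promoter table (GRCm38.p6) held 2 of the 5 members. The windows run from 250 to 51 bases before the annotated start, 5′ to 3′ on the strand of the gene, at chr3:107760520-107760719 for Csf1, chr19:61228469-61228668 for Csf2ra and chr15:78305772-78305971 for Csf2rb2, all on the minus strand.
Csf1 upstream: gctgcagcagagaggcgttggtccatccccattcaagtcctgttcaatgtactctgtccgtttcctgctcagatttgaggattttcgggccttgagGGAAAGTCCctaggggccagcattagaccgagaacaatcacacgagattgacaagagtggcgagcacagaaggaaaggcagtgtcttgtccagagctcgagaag
Csf2ra upstream: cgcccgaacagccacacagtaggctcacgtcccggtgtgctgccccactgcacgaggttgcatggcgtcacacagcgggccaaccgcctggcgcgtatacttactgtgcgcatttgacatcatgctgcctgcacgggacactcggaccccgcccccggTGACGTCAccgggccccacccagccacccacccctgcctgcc
Csf2rb2 upstream: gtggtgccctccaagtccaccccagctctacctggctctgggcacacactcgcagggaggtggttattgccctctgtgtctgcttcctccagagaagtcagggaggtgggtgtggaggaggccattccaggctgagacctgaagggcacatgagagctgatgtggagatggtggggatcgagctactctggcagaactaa
Capitals mark exact matches, on either strand, to 3 short motifs that were picked after these windows had been read: a kB site (GGACTTTCC, bound by NF-kB factors), a cyclic AMP response element (TGACGTCA, bound by CREB factors) and an ETS site of the PU.1 type (GAGGAAGT). The motifs do not overlap one another in these windows. Csf1 held the kB site as its reverse complement, GGAAAGTCC, 154 to 146 bases before the start. Csf2ra held the cyclic AMP response element 92 to 85 bases before the start, and no match to any of the 3 was found in the Csf2rb2 window. Of 32851 promoter windows of the same 200 bases, 0.225% held the kB site, 0.828% the cyclic AMP response element and 1.75% the ETS site. The matches describe letters and nothing about binding in these cells.

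Library totals ran from 12700098 to 17994861 counts. Mitochondrially encoded genes took 21.3% and 22.5% of them in uninjured libraries, 13.6% to 21.9% at 1 day and 22.8% to 30.3% at 3 days. The libraries detected 18035 to 22395 genes, fewest at 1 day. All 10 microglia markers tried, among them P2ry12, Tmem119 and Cx3cr1, had counts in every library, and their summed level was 4923 to 7544 CPM (counts relative to the library total, which TMM factors adjust so that libraries can be compared). Sums were lower for border macrophage markers (397 to 791 CPM), endothelial markers (464 to 1262 CPM), mural markers (692 to 1536 CPM) and neuron markers (5.69 to 18.1 CPM). Choroid plexus markers varied most, from 1.09 to 5505 CPM. The highest sum was in uninjured replicate 1, above the 5126 CPM of microglia markers there, while uninjured replicate 2 had 523 CPM. Replicate 3 at 1 day correlated more closely with uninjured replicate 2 (0.926 across genes, log2 CPM) than with either library of its own group. Replicates 1 and 2 at 1 day also correlated more closely with uninjured replicate 2 (0.897 and 0.903) than with each other (0.888). By chi-square per degree of freedom, where lower is closer, replicate 3 was nearer to replicate 1 of its group (30.4) than to uninjured replicate 2 (58.8). These values do not mark replicate 3 as the odd library of its group. Values without it, and without other libraries, are given where they change a result.

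Csf1r was among the most abundant messages of these cells and Il34 was close to the limit of detection. On a scale that allows genes to be compared, CPM per kilobase of exon, the mean levels in uninjured libraries were 631 for Csf1r, 83.2 for Csf1, 45.0 for Csf2ra, 17.9 for Csf2rb and 0.521 for Il34. That order held in each of the 3 groups. Among 17340 genes ranked by this measure in each library, Csf1r ranked between 25 and 35, Csf1 between 139 and 294, Csf2ra between 185 and 857, Csf2rb between 1089 and 2197, and Il34 between 8966 and 15201. Of the GM-CSF receptor chains, Csf2ra was at 2.12 to 5.15 times the level of Csf2rb per kilobase across the 8 libraries. In counts not divided by length the ratio was 0.836 to 2.03, so which chain was the more abundant depends on the length correction.

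None of the 5 members passed the test in any comparison: edgeR's quasi-likelihood test, adjusted by the method of Benjamini and Hochberg over all 17390 genes, called 0 of 5 at an adjusted p under 0.05. At 1 day against uninjured, where 1.77% of all genes were called (0.61% higher and 1.16% lower), 3 of 5 members, Csf1r, Csf1 and Csf2ra, had an unadjusted p under 0.05, as had 14.8% of all genes. DESeq2 called Csf1 and Csf2ra there (4.69% of all genes) and limma-voom called Csf1 (2.2%). At 3 days against uninjured, 3.47% of genes were called (2.49% higher, 0.983% lower), and Csf1, Csf2ra and Csf2rb had an unadjusted p under 0.05 (15.8% of genes). DESeq2 called Csf2ra (7.52% of genes) and limma-voom called no member (4.91% of genes). Between 3 days and 1 day, 11% of genes were called (5.24% higher, 5.75% lower), Csf1r had an unadjusted p under 0.05 (26.2% of genes), DESeq2 called Csf1r as lower at 3 days (16.4% of genes) and limma-voom called no member (9.98% of genes).

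The split of all called genes depended on scaling: 34.4% of those called at 1 day and 71.7% of those called at 3 days against uninjured were higher, against 16.5% and 56.5% with scaling by library size alone. That scaling moved the median of all genes by -0.12 (log2) at 1 day and by -0.15 at 3 days. The median log2 fold change of the 5 members was 0.76 at 1 day, 0.42 at 3 days and -0.35 from 1 to 3 days, beside 0.06, -0.00 and 0.02 over all genes. With library size alone the members' medians were 0.63, 0.27 and -0.36. The comparisons at 1 day and at 3 days share the same 2 uninjured libraries.

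**Figure D1:**
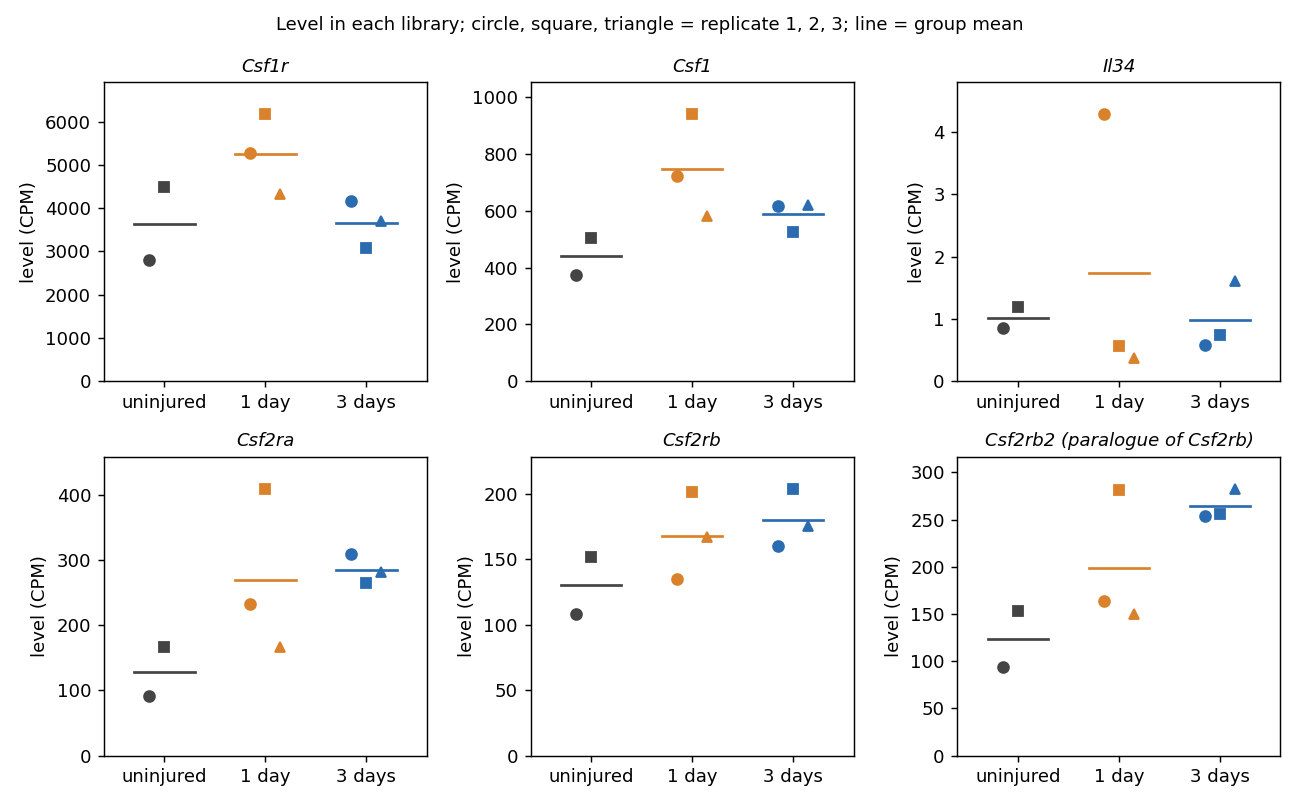
Level of the 5 members and of Csf2rb2, the near copy of Csf2rb, in each of the 8 libraries (vertical axis, CPM from 0; horizontal axis, group; circle, square and triangle are replicates 1, 2 and 3 and the line is the group mean). All 3 libraries at 1 day lie above both uninjured ones for Csf1, all 3 at 3 days do so for Csf1, Csf2ra, Csf2rb and Csf2rb2, and 1 library at 1 day stands alone for Il34.

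Csf1r, the receptor itself, was highest 1 day after crush. The uninjured libraries held 2801 and 4485 CPM, those of 1 day 5263, 6167 and 4337 CPM, and those of 3 days 4164, 3084 and 3708 CPM. All 3 libraries at 1 day lay above all 3 at 3 days, while the range at 1 day overlapped that of the uninjured pair. The group means were 3643 ± 1191 CPM (SD, n = 2), 5255 ± 915 CPM (n = 3) and 3652 ± 542 CPM (n = 3).

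The order of the Csf1r means was thus uninjured, 3 days and 1 day, and the first and second of these lay within each other's spread. The log2 fold change was 0.53 at 1 day (SE 0.20, 95% interval 0.09 to 0.96, adjusted p = 0.225 with edgeR), 0.00 at 3 days (SE 0.20, -0.42 to 0.43, adjusted p = 0.998) and -0.53 from 1 to 3 days (SE 0.18, -0.91 to -0.14, adjusted p = 0.0756). The value at 3 days against uninjured was so close to 0 that its sign turned with the scaling, to -0.03 with DESeq2's size factors and -0.15 with library size alone. The uninjured pair decided the value at 1 day: it was 0.91 (adjusted p = 0.0481) without replicate 2 and 0.22 (adjusted p = 0.942) without replicate 1 of that group.

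Microglia markers moved with Csf1r. Their summed level was 5126 and 6262 CPM in uninjured libraries, 6359 to 7544 CPM at 1 day and 4923 to 5606 CPM at 3 days, and 4 of the 10, P2ry12, Tmem119, Sall1 and Siglech, fell from 1 to 3 days. In bulk RNA of sorted cells, fewer cells of a type and less RNA per cell cannot be told apart. The part of these markers in the Csf1r result was not tested. Of the exonic bases of Csf1r in GENCODE M21, 15.1% are shared with Hmgxb3 on the opposite strand, and whether counting used the strand is not given in the sources used here.

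Csf1, the ligand that microglia can make for their own receptor, was higher in every injured library than in either uninjured one, but edgeR called it at neither time. Its level was 375 and 504 CPM in uninjured libraries, 722, 939 and 582 CPM at 1 day and 617, 527 and 622 CPM at 3 days. Neither injured group overlapped the uninjured pair, and the injured groups overlapped each other. The order of means was uninjured (439 ± 91.2 CPM, n = 2), 3 days (588 ± 53.5 CPM, n = 3) and 1 day (748 ± 180 CPM, n = 3), and the last pair differed by less than the SD at 1 day.

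For Csf1 the log2 fold change was 0.77 at 1 day (SE 0.20, 95% interval 0.34 to 1.19), a 1.70-fold difference with an adjusted p of 0.0666 in edgeR, just short of the threshold. DESeq2 gave 0.74 (adjusted p = 0.0179) and limma-voom 0.74 (adjusted p = 0.0309), and both passed. In edgeR it also passed without replicate 3 of the 1 day group (0.92, adjusted p = 0.0328), and was 0.57 (adjusted p = 0.678) without replicate 1 of the uninjured group. At 3 days the value was 0.42 (SE 0.20, 0.00 to 0.84, adjusted p = 0.315), and from 1 to 3 days it was -0.35 (SE 0.17, -0.72 to 0.03, adjusted p = 0.23).

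Il34 encodes the other CSF1R ligand, whose usual source is the neuron, and it was barely detected. It had 16 and 23 counts in uninjured libraries, 55, 7 and 6 counts at 1 day, and 9, 10 and 20 counts at 3 days. One library, replicate 1 at 1 day, held more counts than the other two of its group together, and the ranges of all groups overlapped. In CPM the group means were 1.02 ± 0.233 (n = 2), 1.74 ± 2.21 (n = 3) and 0.982 ± 0.552 (n = 3).

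The intervals on the Il34 log2 fold change, -1.90 to 3.42 at 1 day, -2.68 to 2.56 at 3 days and -3.18 to 1.54 between the times, were too wide to show a change of several fold in either direction (edgeR adjusted p = 0.86, 0.994 and 0.696). Without replicate 1 of the 1 day group the value at 1 day turned from 0.76 to -1.12 and the value between the times from -0.82 to 1.06. That library also had the highest neuron marker sum, 18.1 CPM, although 7 of the 9 neuron markers in the table had no count there. The part of neuronal RNA in the Il34 counts was not tested. Of the exonic bases of Il34, 4.95% are shared with genes on the opposite strand.

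Csf2ra, the ligand-binding chain of the GM-CSF receptor, showed the largest fitted difference from uninjured libraries among the 5 members at both times. Its level was 90.8 and 167 CPM in uninjured libraries, 233, 410 and 167 CPM at 1 day and 309, 265 and 282 CPM at 3 days. The 3 libraries at 3 days lay close together and above both uninjured ones, whereas replicate 3 at 1 day was at the level of uninjured replicate 2. The order of means was uninjured (129 ± 54.1 CPM, n = 2), 1 day (269.7 ± 125.6 CPM, n = 3) and 3 days (285 ± 22.3 CPM, n = 3), and the last pair lay within their spread.

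The Csf2ra log2 fold change was 1.06 at 1 day (SE 0.32, 95% interval 0.36 to 1.76, adjusted p = 0.127 with edgeR) and 1.14 at 3 days (SE 0.33, 0.44 to 1.85, adjusted p = 0.0778), folds of 2.09 and 2.21. DESeq2 called both (1.03, adjusted p = 0.0231, and 1.11, adjusted p = 0.00606). In edgeR the value at 1 day passed without replicate 3 of that group (1.31, adjusted p = 0.0394). The value at 3 days passed when 1 day replicate 2 (1.10, adjusted p = 0.0127) or replicate 3 (1.14, adjusted p = 0.0388) was left out of the shared estimate of spread. Without uninjured replicate 1 the values were 0.68 at 1 day and 0.76 at 3 days, and without uninjured replicate 2 they were 1.57 and 1.65. Without 1 day replicate 2 the value at 1 day was 0.59 (adjusted p = 0.275). Between the injured groups the difference was 0.08 (SE 0.28, -0.52 to 0.69, adjusted p = 0.899).

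Csf2rb, the signalling chain that GM-CSF, IL-3 and IL-5 receptors share, was at 109 and 152 CPM in uninjured libraries, 135, 202 and 167 CPM at 1 day and 160, 204 and 176 CPM at 3 days. Only the libraries at 3 days lay wholly above the uninjured pair, and by a narrow margin. Means were 130.1 ± 30.4 CPM (n = 2), 168 ± 33.4 CPM (n = 3) and 179.9 ± 22.3 CPM (n = 3) in that order, and the groups at 1 day and 3 days lay within each other's spread. The log2 fold changes were 0.37 at 1 day (SE 0.21, 95% interval -0.08 to 0.81, adjusted p = 0.461 with edgeR), 0.47 at 3 days (SE 0.21, 0.02 to 0.91, adjusted p = 0.284) and 0.10 between the times (SE 0.18, -0.29 to 0.49, adjusted p = 0.791).

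The near copy Csf2rb2 rose at 3 days. It was at 94.0 and 153 CPM in uninjured libraries, 164, 282 and 150 CPM at 1 day and 254, 256 and 283 CPM at 3 days, so the libraries at 3 days lay above the uninjured pair and closer together than those at 1 day. The log2 fold change was 1.10 at 3 days (SE 0.26, 95% interval 0.53 to 1.66, adjusted p = 0.0343 with edgeR), a 2.14-fold rise, and 0.69 at 1 day (SE 0.26, 0.13 to 1.24, adjusted p = 0.219). The call at 3 days was lost without uninjured replicate 1 (0.78, adjusted p = 0.413) and without replicate 1, 2 or 3 of the 3 day group (1.13, 1.07 and 0.999, adjusted p = 0.0867, 0.0837 and 0.168).

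Because the pair shares the stretches printed above, their counts were also summed into a single row. The sum was 203 and 304 CPM in uninjured libraries, 299, 484 and 317 CPM at 1 day and 414, 460 and 458 CPM at 3 days, again with no overlap between 3 days and uninjured. Its log2 fold change at 3 days was 0.81 (SE 0.22, adjusted p = 0.0615 with edgeR), which did not pass. Another division of the shared reads was not tested.

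**Figure D2:**
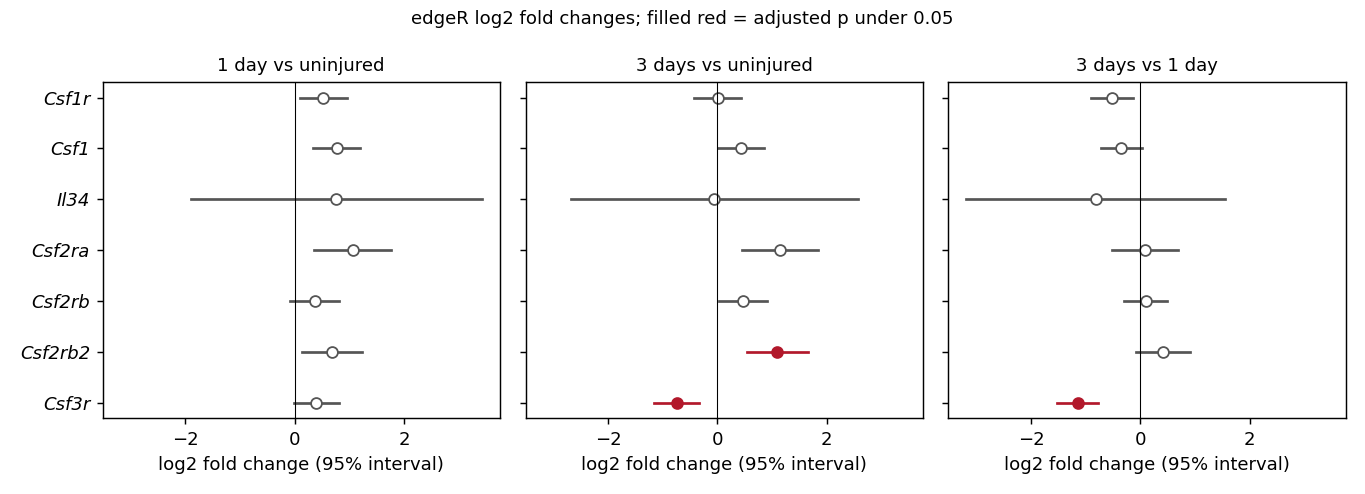
Log2 fold changes (horizontal axis, with 95% intervals) of the 5 members, Csf2rb2 and Csf3r in each comparison by edgeR; filled red points have an adjusted p under 0.05. No member is filled, the Csf2rb2 point at 3 days is filled at 1.10, the Csf3r points are filled at -0.75 and -1.14, and the Il34 intervals span more than the rest.

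In counts of libraries whose groups did not overlap, in either direction, the members gave 1 of 5 at 1 day (Csf1, higher), where 29.3% of all genes did so. They gave 3 of 5 at 3 days (Csf1, Csf2ra and Csf2rb, higher), where 39.4% did so, and 1 of 5 between the times (Csf1r, lower at 3 days), where 29.8% did so. With 2 uninjured libraries such a separation was common across the table.

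Ratios of members within a library do not depend on the scaling between libraries, and 4 of them, chosen after the levels had been seen, are given as a description with no test. Csf2ra relative to Csf1r, per kilobase of exon, was 0.065 and 0.075 in uninjured libraries, 0.089, 0.134 and 0.077 at 1 day and 0.149, 0.173 and 0.153 at 3 days. Ratios were highest in the 3 libraries of 3 days, and the groups did not overlap, although 1 day replicate 3 lay just above the uninjured pair. How many other gene pairs separate the groups in this way was not counted. Csf1 relative to Csf1r was 0.146 and 0.123, then 0.15, 0.167 and 0.147, then 0.162, 0.187 and 0.183, a smaller shift of ligand over receptor. Csf2ra relative to Csf2rb was 2.12 and 2.80, then 4.37, 5.15 and 2.53, then 4.90, 3.29 and 4.07, with overlap between 1 day and both other groups. Csf2rb2 relative to Csf2rb was 1.33 and 1.55, then 1.87, 2.14 and 1.38, then 2.44, 1.93 and 2.47.

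**Figure D3:**
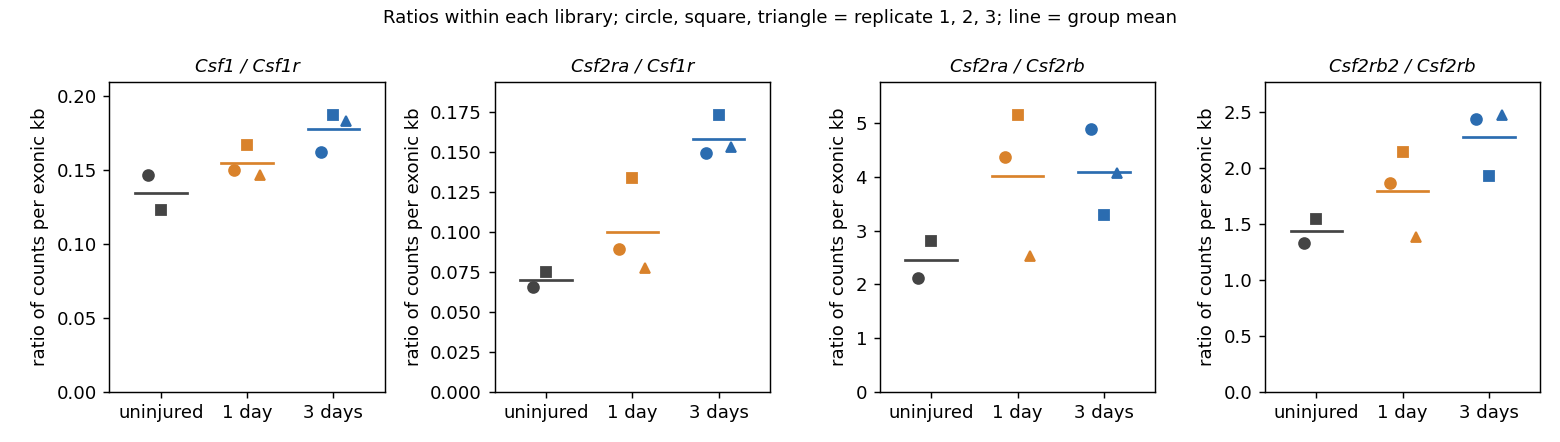
Ratios of counts per kilobase of exon within each library (vertical axis from 0) by group; circle, square and triangle are replicates 1, 2 and 3 and lines are group means. The ratio of Csf2ra to Csf1r runs from 0.065 to 0.075 in uninjured libraries and from 0.149 to 0.173 at 3 days.

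Of the other receptors for colony stimulating factors and their kin, Csf3r, the receptor for granulocyte colony stimulating factor, was lowest at 3 days. It was at 231 and 328 CPM in uninjured libraries, 313, 413 and 379 CPM at 1 day and 196, 157 and 147 CPM at 3 days, and the libraries at 3 days lay below all others. Csf3r fell at 3 days against uninjured (log2 fold change -0.75, SE 0.19, adjusted p = 0.0449 with edgeR) and against 1 day (-1.14, SE 0.17, adjusted p = 0.000925). The latter call held with each library left out in turn (-1.28 to -1.06). The former was lost without uninjured replicate 1 or 2, without 1 day replicate 3 and without any of the 3 day libraries, at -0.98 to -0.48 (adjusted p up to 0.457). It was also lost with the replicate number as a block (-0.69, adjusted p = 0.0971).

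Neutrophils carry Csf3r, and the summed level of 6 neutrophil markers was 44.2 and 35.8 CPM in uninjured libraries, 49.5 to 136.7 CPM at 1 day and 17.7 to 35.4 CPM at 3 days. Ly6g, a defining marker, had no count in 5 of the 8 libraries, and S100a8 fell from 1 to 3 days. Summed monocyte markers were 5.96 to 33.1 CPM. The part of these cells in the Csf3r and Csf2ra results was not tested.

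The ligands on the GM-CSF side were at or near 0. Csf2, which encodes GM-CSF, had 0 and 7 counts in uninjured libraries, 4, 2 and 3 counts at 1 day and 4, 3 and 14 counts at 3 days, and Csf3, the ligand of Csf3r, had at most 10 counts in a library. Both stayed below the count filter, as did Il5ra, the IL-5 receptor alpha chain, and none was tested. Il3ra, the IL-3 receptor alpha chain, was at 1.02 and 1.65 CPM, then 3.66, 0 and 1.54 CPM, then 0.785, 3.87 and 2.18 CPM, with overlap of all groups and no call.

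The surrounding pathway was read through 6 gene lists, of which 62 of 68 genes could be tested. The lists were chosen with earlier results of these data known. At 1 day 1 of the 62 was called (1.61%, against 1.77% of all genes), Kitl, which fell. At 3 days 2 were called, Csf2rb2 higher and Csf3r lower (3.23% against 3.47%). Between the times 15 were called (24.2% against 11%), of which 14 fell from 1 to 3 days and 1 rose. The fitted values at 1 day were above 0 for 53 of the 62 genes with a median of 0.37, beside 54% of all genes, and for 45 with a median of 0.26 when libraries were scaled by size alone, beside 46.3% of all genes.

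**Figure D4:**
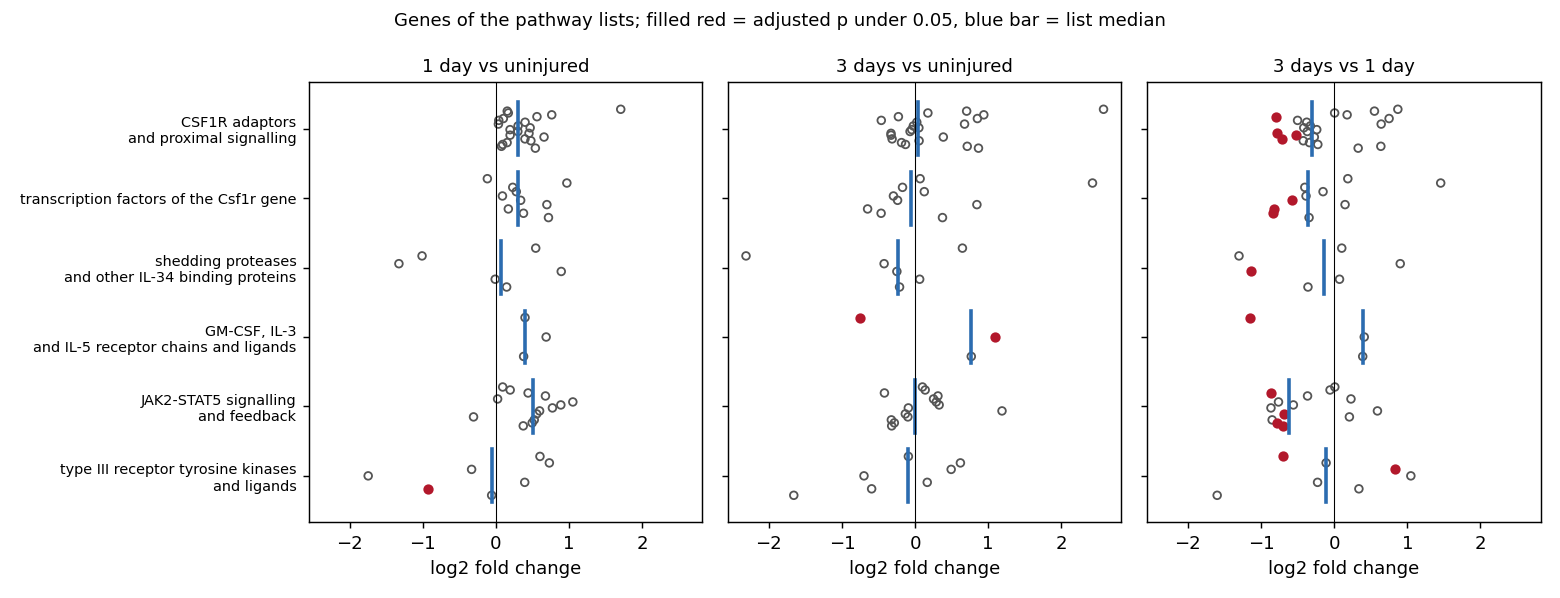
Log2 fold change (horizontal axis) of each tested gene in the 6 pathway lists (rows) for the 3 comparisons; filled red points have an adjusted p under 0.05 and blue bars are list medians. Most points lie right of 0 at 1 day with 1 called, and the panel of 3 days against 1 day holds 14 called genes left of 0 and 1 right of it.

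Of 22 adaptor and proximal signalling genes of CSF1R, none was called against uninjured by edgeR (6 higher at 1 day, 5 higher and 1 lower at 3 days at an unadjusted p under 0.05), and 4 fell from 1 to 3 days. DESeq2 and limma-voom each called 1 of them higher at 1 day, Pik3r5, and 2 higher at 3 days, Akt1 and Tyrobp. Pik3r1, the regulatory subunit of phosphoinositide 3-kinase, was at 465 and 462 CPM in uninjured libraries, 574, 594 and 661 CPM at 1 day and 371, 372 and 375 CPM at 3 days. Its fall from 1 to 3 days was -0.71 (log2, SE 0.12, adjusted p = 0.00234 with edgeR), with no overlap between those groups. Inpp5d, the phosphatase SHIP1 that opposes this kinase, fell by 0.78 (adjusted p = 0.00374) and the docking protein gene Gab2 fell by 0.79 (adjusted p = 0.00392). These 3 calls held with each library left out in turn.

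Plcg2, the phospholipase C used by myeloid receptors, fell by 0.52 (adjusted p = 0.0462 with edgeR), a call lost when any of 6 libraries was left out (lowest size 0.46, without 3 day replicate 3) and in limma-voom. Tyrobp, which encodes the adaptor DAP12 through which CSF1R also signals, did not pass in edgeR. Its level was 153 and 258 CPM in uninjured libraries, 226, 394 and 275 CPM at 1 day and 402, 362 and 359 CPM at 3 days, higher at 3 days in all 3 libraries with a fitted difference of 0.87 on the log2 scale (SE 0.24, adjusted p = 0.0663). DESeq2 (0.83, adjusted p = 0.0126) and limma-voom (0.91, adjusted p = 0.0168) called it.

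Among 10 transcription factors that act on the Csf1r gene, none was called by edgeR against uninjured (2 higher at 1 day, 1 higher and 2 lower at 3 days at an unadjusted p under 0.05), and 3 fell from 1 to 3 days. Against uninjured limma-voom called none, and DESeq2 called Spi1 higher at 1 day and, at 3 days, Tfec higher and Runx1 and Cebpa lower. Spi1, which encodes the lineage factor PU.1, was at 78.1 and 106 CPM in uninjured libraries, 143, 177 and 133 CPM at 1 day and 128, 109 and 121 CPM at 3 days. The uninjured libraries were the lowest and those at 1 day the highest, without overlap, but the difference of 0.72 at 1 day did not pass in edgeR (SE 0.20, adjusted p = 0.0865), while DESeq2 called it (0.69, adjusted p = 0.0324). Runx1, which acts with PU.1, fell by 0.84 from 1 to 3 days (SE 0.14, adjusted p = 0.00135), and did so with each library left out.

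Cebpa and Irf8, further myeloid factors, fell by 0.82 (adjusted p = 0.0200 with edgeR) and 0.58 (adjusted p = 0.0417) from 1 to 3 days. The call of Cebpa was lost without 1 day replicate 1 or 3 day replicate 1 or 3. That of Irf8 was lost without 1 day replicate 1 or 3 or 3 day replicate 2 or 3. The list's count from 1 to 3 days ranged from 1 to 4 over the libraries left out, at 1 without 1 day replicate 1 and without 3 day replicate 3.

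A list of 14 genes held JAK and STAT genes, which carry the signal of the GM-CSF receptor, with feedback inhibitors and other linked genes. Of these, 4 fell from 1 to 3 days: Jak1, Jak2, Stat3 and Irf4. None was called by edgeR against uninjured (6 higher at 1 day and 0 at 3 days at an unadjusted p under 0.05). DESeq2 called Stat3, Pim1 and Socs3 higher at 1 day and limma-voom called Stat3 and Jak1, and neither called any at 3 days against uninjured. Jak2, the kinase bound to the common beta chain, was at 144 and 133 CPM in uninjured libraries, 174, 169 and 195 CPM at 1 day and 97.7, 121 and 114 CPM at 3 days. It fell by 0.69 (SE 0.15, adjusted p = 0.00967 with edgeR), a call lost without 3 day replicate 1 (-0.61, adjusted p = 0.0560). Jak1 and Stat3 fell by 0.78 and 0.69 (adjusted p = 0.00151 and 0.00491) with each library left out as well. Irf4, an interferon regulatory factor, fell by 0.86 (adjusted p = 0.0146), a call lost without 1 day replicate 3 or 3 day replicate 2 or 3.

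STAT5 genes and known feedback genes did not pass in edgeR. The log2 fold change from 1 to 3 days was -0.85 for Stat5a (SE 0.30, adjusted p = 0.0839 with edgeR) and 0.21 for Stat5b (SE 0.31, adjusted p = 0.725), and DESeq2 called the former (-0.85, adjusted p = 0.0372). Cish, a feedback inhibitor induced by STAT5, was at 5.50 and 3.14 CPM in uninjured libraries, 3.89, 7.14 and 8.56 CPM at 1 day and 10.8, 12.7 and 6.05 CPM at 3 days. All 3 libraries at 3 days were above both uninjured ones, with a fitted difference of 1.19 on the log2 scale (SE 0.58, adjusted p = 0.34). Socs3, an inhibitor induced mainly by STAT3, was at 91.7 and 142 CPM, then 185, 283 and 181 CPM, then 176, 112 and 153 CPM, a difference of 0.89 at 1 day (SE 0.25, adjusted p = 0.0989 with edgeR), which DESeq2 called (0.85, adjusted p = 0.0307).

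Of 6 genes for the protease that sheds CSF1R and for other IL-34 binding proteins, 1 was called. Rhbdf2, the adaptor that brings the sheddase ADAM17 to the cell surface, was at 52.8 and 74.4 CPM in uninjured libraries, 127, 117 and 111 CPM at 1 day and 47.1, 61.9 and 51.7 CPM at 3 days. The libraries at 1 day stood above all others, and Rhbdf2 fell by 1.14 from 1 to 3 days (SE 0.19, adjusted p = 0.00174 with edgeR), with each library left out as well. Against uninjured it was 0.89 at 1 day (SE 0.22, adjusted p = 0.0513 with edgeR), just short of the threshold, and DESeq2 (0.86, adjusted p = 0.00761) and limma-voom (0.91, adjusted p = 0.0294) called it. Adam17 itself was at 131 to 210 CPM in the uninjured and 1 day libraries and at 129 to 162 CPM at 3 days, with no call (-0.36 from 1 to 3 days, SE 0.18, adjusted p = 0.237). Ptprz1, an alternative IL-34 receptor of glia and neurons, was at 0 to 3.53 CPM.

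The 7 tested genes of receptor kinases closest to CSF1R and of their ligands are mostly genes of other cells, and none was called at 3 days against uninjured (1 was higher and 1 was lower if p was left unadjusted, under 0.05, and DESeq2 and limma-voom called 0). Kitl, the KIT ligand, fell at 1 day from 72.4 and 76.6 CPM to 38.5, 41.2 and 37.5 CPM (log2 fold change -0.93, SE 0.22, adjusted p = 0.0492 with edgeR). That call was lost with each library left out in turn (-1.02 to -0.89, adjusted p = 0.0502 to 0.39), with the replicate number as a block (-0.96, adjusted p = 0.0756) and in a fit of the 2 groups alone. Pdgfrb, a pericyte receptor, rose by 0.83 from 1 to 3 days (SE 0.24, adjusted p = 0.0436), a call that held without 1 day replicate 2 and was lost when any other library was left out (0.71 to 0.89). Pdgfb, which endothelium and macrophages make, fell by 0.69 (SE 0.17, adjusted p = 0.0174), a call lost without 3 day replicate 3 (-0.59, adjusted p = 0.102).

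The means of Kitl and Pdgfrb were lowest at 1 day, as were the summed markers of vessel cells. At 3 days Pdgfrb was above the uninjured pair (37.7 to 47.7 against 28.3 and 30.3 CPM), whereas the summed markers were below it. From 1 to 3 days 3 of 7 mural markers were called higher and 0 lower by edgeR. The fitted values of Acta2 (-0.62), Myh11 (-0.49) and Tagln (-0.02) were below 0. Summed endothelial markers were 1262 and 1106 CPM in uninjured libraries, 464 to 600 CPM at 1 day and 896 to 972 CPM at 3 days, and 6 of the 8 fell at 1 day. Summed mural markers were 1536 and 1304 CPM, then 692 to 872 CPM, then 966 to 1117 CPM. Choroid plexus markers were at 5505 and 523 CPM in uninjured libraries, 1.09 to 56.6 CPM at 1 day and 623 to 3566 CPM at 3 days. Their part in these results was not tested.

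**Figure D5:**
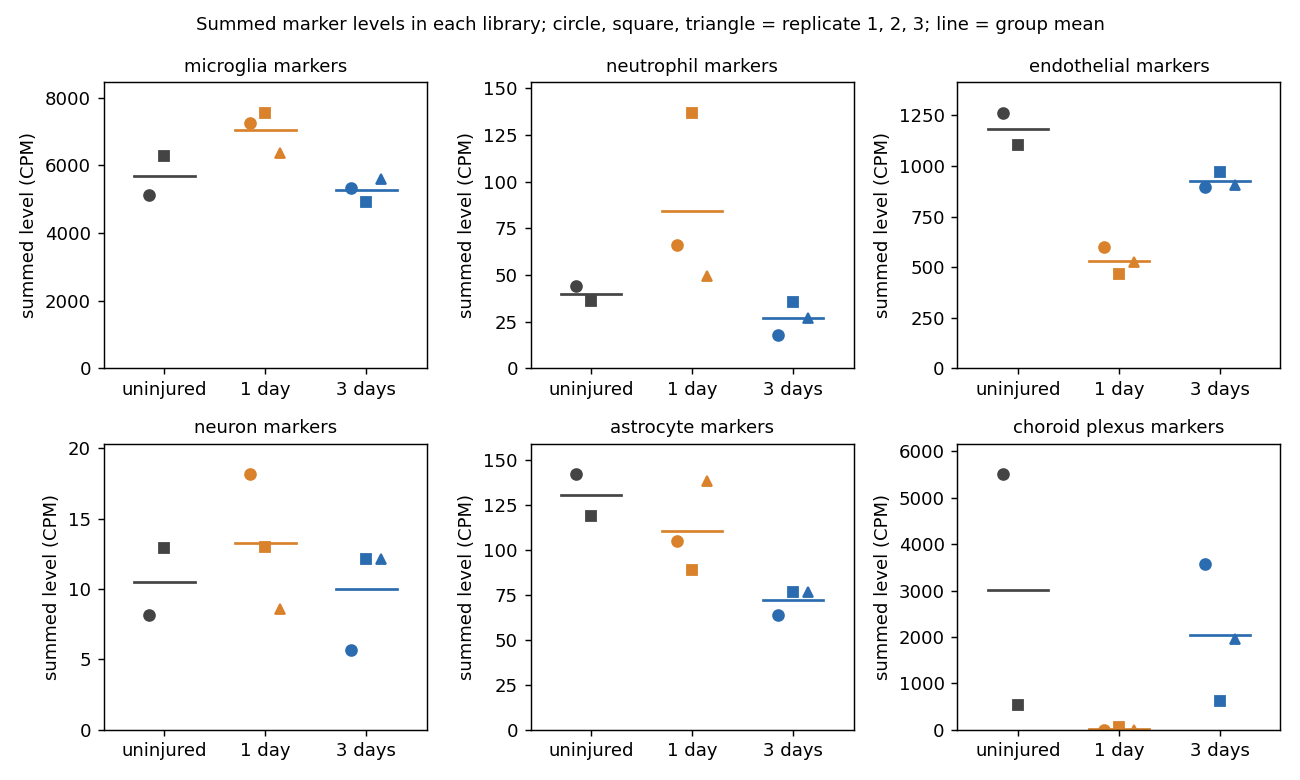
Summed level (vertical axis, CPM from 0) of 6 lists of cell type markers in each library by group; circle, square and triangle are replicates 1, 2 and 3 and lines are group means. Microglia markers are highest at 1 day, at 6359 to 7544 CPM, neutrophil markers reach 136.7 CPM in 1 library at 1 day, and endothelial and choroid plexus markers are lowest at 1 day.

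The genes most like each member across the 8 libraries were taken as the 3 with the highest Pearson correlation of log2 CPM among 9498 genes whose mean reached 5 CPM, as a description with no test. The 8 points share depth and composition, and with so many genes compared high values are common. For Csf1r they included Itgb5 (0.98), an integrin subunit, and Tifab (0.98). For Csf1 they were Atp6v0b (0.99), Man2a2 (0.98) and Spi1 (0.98), the last being the PU.1 gene described above.

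For Csf2ra they were Rac2 (0.98), a small GTPase of blood cells, Pfdn1 (0.98) and Limd2 (0.97), and for Csf2rb they were Dhx16 (0.99), Tsg101 (0.97) and Rpl18 (0.97). Those of Il34, Stam (0.97), Ttf1 (0.96) and Usp27x (0.94), rested on 1 day replicate 1 in part, and without it were 0.90, 0.86 and 0.84. With Spearman's measure in place of Pearson's, none of the 3 genes was the same for Csf1r, Csf1 and Csf2ra, 1 was for Il34 and 2 were for Csf2rb.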

How the data were processed

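RNA-seq counts from CD11b bead-purified LGN microglia (2 uninjured, 3 at 1 day, 3 at 3 days after crush) were analysed. The authors deposited whole-number read counts for each Ensembl gene, with a column for each library. Per the labels' protocols, RNA was taken with the RNAqueous Micro kit and linearly amplified. The submitters' processing notes name FastQC, STAR, HTSeq and build mm9. The versions, annotation, strand setting and read length: not given in the sources used here. A single flow cell code stands in every sample description, so the libraries could not be split by batch. Of 26062 gene identifiers, 25925 matched a symbol, and the rest took 0.114% to 0.143% of counts. Linear amplification favours the 3′ end, so levels per exonic kilobase are approximate.

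Counts were fitted with edgeR 4.0.16 (R 4.3.3): filterByExpr, TMM scaling and a robust quasi-likelihood fit with a mean per group over all 8 libraries, pooling the spread since only 2 libraries are uninjured. P-values were adjusted over 17390 genes by the Benjamini-Hochberg method and called under 0.05. The coefficient of variation between libraries beyond counting noise, from edgeR's common dispersion, was 51.1%, and it may be technical. SEs are the log2 fold change over the square root of F. The procedure was tested on simulated data. No pair of libraries of a group agreed within sampling noise (chi-square per degree of freedom 30.4 to 61.4). Exon lengths came from GENCODE M21, summed over merged exons.

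The members and the gene lists were chosen with earlier results of these data known. Named genes are the 5 members, each called pathway gene (at most 6 a list) and 13 further genes fixed by name (Tyrobp, Spi1, Csf2, Csf2rb2, Il3ra, Csf3r, Pdgfrb, Ptprz1, Adam17, Stat5a, Stat5b, Cish and Socs3). The 11 marker lists covered microglia, neurons, astrocytes, oligodendrocytes, endothelium, mural cells, choroid plexus, monocytes, neutrophils, border macrophages and lymphocytes. Summed astrocyte markers ran from 63.4 to 142 CPM, oligodendrocyte markers from 65.7 to 130.2 CPM and lymphocyte markers from 0 to 2.09 CPM. Alternatives were DESeq2 1.42.0, limma-voom (limma 3.58.1), other scaling and filters, the 2 groups of a comparison alone, a replicate block and each library left out. Summing Csf2rb with Csf2rb2 and recounting the gene lists with limma-voom and the pathway lists with each library left out were added after seeing the data. One of the genes most like Csf1r is not reported here.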

Additional observations from a re-analysis of the deposited data

How the results depend on the processing

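The 2 uninjured libraries limit the precision, and Il34, with 6 to 55 counts a library, allows no statement on its direction. Leaving out mitochondrially encoded genes, whose share differed between groups, changed no member's call. The count of genes called at 1 day (308) was 816 with DESeq2 and 110 with the 2 groups alone, and 39 to 368 with a library left out (lowest without uninjured replicate 1). At 3 days (604) it was 1308 with DESeq2, 1345 with the 2 groups alone and 108 to 982 with a library left out (lowest without uninjured replicate 1, highest without 1 day replicate 2). From 1 to 3 days (1912) it was 747 (without 3 day replicate 3) to 2362. DESeq2 called 7 pathway genes at 1 day (1 in edgeR), 7 at 3 days (2 in edgeR) and 7 marker genes at 3 days (4 in edgeR). With limma-voom these counts were 5, 4 and 7. DESeq2 gave no adjusted p for 5408 genes at 3 days against uninjured, Il34 among them.

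Csf1 at 1 day passed with DESeq2 (0.74), limma-voom (0.74) and no filter (0.72, adjusted p = 0.025), and ranged over 0.53 to 0.997 with a library left out. Csf2ra at 1 day passed with DESeq2 (1.03) and ranged over 0.59 to 1.57; at 3 days it passed with DESeq2 (1.11) and with the 2 groups alone (1.14, adjusted p = 0.00716), and ranged over 0.76 to 1.65. Csf1r at 1 day ranged over 0.22 to 0.91. From 1 to 3 days Csf1r passed with DESeq2 (-0.53, adjusted p = 0.0424), with the 2 groups alone (-0.52, adjusted p = 0.0422) and without uninjured replicate 1 or 2 (-0.53 each), and ranged over -0.65 to -0.40. Csf1r at 3 days against uninjured turned sign with DESeq2 (-0.033), its size factors in edgeR (-0.033), library size alone (-0.15), mitochondrially encoded genes left out (-0.000823), no filter (-0.055) and the 2 groups alone (-0.000339), and ranged over -0.30 to 0.38. Il34 at 1 day turned to -0.10 with limma-voom and ranged over -1.12 to 1.24, at 3 days over -0.66 to 0.21 and between the times over -1.38 to 1.06. Between the times Csf2ra ranged over -0.17 to 0.51 and Csf2rb over -0.036 to 0.25. Except where a value or the number of samples or genes shows it, the cause was not tested.

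With the replicate number as a block, Csf2ra passed at 1 day (1.19, adjusted p = 0.0276) and 3 days (1.39, adjusted p = 0.0116), and no other member changed its call. The block gave 301, 424 and 1700 called genes at 1 day, 3 days and between the times. Deviations of same-numbered libraries from their group means correlated at -0.06 to 0.09. With so few libraries in a group, these values cannot decide whether the numbers mark a pairing.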
